A study of Mus musculus with 2 samples.

Results

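Nuclei of C2C12, an established mouse myoblast cell line, were compared by how much small nucleolar RNA (snoRNA) each had yielded after in situ polyadenylation, in which yeast poly(A) polymerase adds tails to RNAs inside the permeable nucleus before droplet capture. In the in situ polyadenylated library, 1335 barcodes had over 750 unique molecular identifiers (UMIs) in the kallisto table, and 1328 of them were also in the STAR table. From these 1328 nuclei the members were chosen by the share of their STAR UMIs in gene symbols that begin with Snord, Snora or Scarna. The denominator of that share left out 6 symbols that took most of the library, Peak1, ENSMUSG00002076173, Rn18s-rs5, Zfp791, 5_8S_rRNA and Mir6236. Ranked by it, the nuclei were cut into 4 rank groups of 332. The top group is called snoRNA-rich and the bottom group snoRNA-poor, so the comparison holds 664 of the 2451 nuclei of the series. The other 1123 nuclei came from the standard library, prepared from the same line without the polymerase. The labels give no genotype, treatment or differentiation step for either library, and they give 1 library per preparation. All values below therefore describe nuclei of 1 library, no test between conditions is possible, and each ratio carries an exact 95% conditional Poisson interval that covers counting error only. No barcode was shared between the retained nuclei of the libraries.

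Small nucleolar RNAs carry no poly(A) tail of their own. Box C/D snoRNAs guide ribose methylation or cleavage of rRNA in the nucleolus, box H/ACA snoRNAs guide pseudouridylation, and scaRNAs guide the modification of spliceosomal RNAs in Cajal bodies. Most are cut from introns of host genes, whereas a few, such as U8 (Snord118) and U13 (Snord13), which act in rRNA processing, are transcribed from promoters of their own.

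Snord118, the RNA that carried most of the ranking, and Snord17 are shown here as GENCODE M39 transcripts on the GRCm39 build. Box C (TGATGA) and the last box D (CTGA) are in capitals. Snord17 had the most kallisto UMIs among the Snord, Snora and Scarna symbols without STAR UMIs, which the ranking did not use. Snord118 lies at chr11:68964253-68964387 on the plus strand, in Tmem107 but outside its exons. Scarna2 lies at chr3:108461654-108462067 on the minus strand, over an exon of the predicted gene Gm65135. Snord17 lies at chr2:144107899-144108136 on the minus strand, in Snx5 but outside its exons.
Snord118: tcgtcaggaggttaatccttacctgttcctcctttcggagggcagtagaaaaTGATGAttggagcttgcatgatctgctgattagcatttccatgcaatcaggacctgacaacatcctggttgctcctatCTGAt
Snord17: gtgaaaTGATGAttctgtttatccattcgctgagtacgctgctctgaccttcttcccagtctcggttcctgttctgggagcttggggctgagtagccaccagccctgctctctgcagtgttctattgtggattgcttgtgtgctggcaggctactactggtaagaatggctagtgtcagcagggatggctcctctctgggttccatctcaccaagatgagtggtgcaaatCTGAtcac
Both printed sequences hold TGATGA on the RNA strand and CTGA in their last 30 bases. Among 1558 snoRNA and scaRNA transcripts of the annotation, 24.2% hold both, 26.5% hold TGATGA anywhere and 59.3% hold CTGA in the last 30 bases.

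The ranking rested on few RNAs. Of 152 snoRNA symbols in the table, 8 had STAR UMIs in the 1328 nuclei, and Snord118, Snord13 and Scarna2 held 96.1% of the 18656 snoRNA UMIs. With Snord104 they held 99.1%. From the rich to the poor group the summed snoRNA share was 0.851%, 0.586%, 0.416% and 0.200% of the denominator, and the median nucleus had 18, 13, 9 and 4 snoRNA UMIs. Because the groups were cut on this share, its fall is a description. The last nucleus inside the rich group had 18 snoRNA UMIs of 2639, and the first outside it had 13 of 1906. At the other edge the last nucleus outside the poor group had 8 of 2517 and the first inside it had 6 of 1891. In 5 snoRNA-poor nuclei no snoRNA UMI was counted. Such small counts mean that nuclei near an edge are not told apart by their share.

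Snord118 had 3925, 3256, 2050 and 889 UMIs from the rich to the poor group. Snord13 had 2227, 1870, 1221 and 543 UMIs. Scarna2, a scaRNA, had 748, 613, 402 and 176 UMIs. The log2 ratios of rich over poor were 2.13, 2.02 and 2.07, and since these RNAs made the ranking, their fall and the likeness of their ratios are a description of the rule. In the standard nuclei the same RNAs had 9, 19 and 56 UMIs, and all snoRNA symbols together made up 0.00191% of the denominator. The median standard nucleus had 3809 denominator UMIs, against 2129 in the in situ polyadenylated library. The box H/ACA snoRNA Snora57 was scarcer, with 42, 24, 23 and 7 UMIs.

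The other 144 snoRNA symbols had 0 STAR UMIs, and 143 of them lie inside a gene on the same strand. The ranking therefore did not use them. kallisto, which assigns reads to transcripts, gave UMIs to 57 of the 144. Together these snoRNAs had 558 kallisto UMIs in snoRNA-rich and 206 in snoRNA-poor nuclei, or 0.423%, 0.319%, 0.232% and 0.115% of the kallisto denominator from the rich to the poor group. The log2 ratio was 1.88 (95% interval 1.65 to 2.12), a 3.69-fold difference. Its denominator, 131844 and 179713 kallisto UMIs, leaves out ENSMUSG00002075551, a feature described below. That was decided after seeing the data, and keeping the feature in would lower this and the other kallisto ratios. Reads of a nested snoRNA are thus ordered along the groups like those of Snord118, although both tables come from the same molecules of the same nuclei and are not separate measurements of the nucleus.

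Snord17, the box C/D snoRNA of Snx5, had 171 kallisto UMIs in snoRNA-rich and 67 in snoRNA-poor nuclei, a log2 ratio of 1.80 (1.38 to 2.23). Snord43, which lies in Rpl3, had 48 against 15. Snord72, which lies in Rpl37, had 44 against 16. Snord49b had 43 against 11 and Snord35a, which lies in Rpl13a, 20 against 3. A limit on UMIs summed over both groups can be passed through the rich group alone, as by Snord35a at 20. A count of nested snoRNAs past such a limit is therefore not given as a result. Scarcer ones varied: Snord42b had 12 against 1 kallisto UMIs, Snord73a 4 against 5 and Snord110 4 against 6. Snx5, the host of Snord17, was lower by STAR, with 138 UMIs in snoRNA-rich and 204 in snoRNA-poor nuclei, a log2 ratio of -0.58 (-0.90 to -0.26). The STAR and kallisto ratios have different denominators, so the size of the gap between host and snoRNA is not given.

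Rankings on one class were also read out in the other, which removes the measured RNAs from the rule. When nuclei were ranked by Snord symbols alone, Snora and Scarna symbols had 679 UMIs in the top and 262 in the bottom group, a log2 ratio of 1.35 (1.14 to 1.56). When nuclei were ranked by Snora and Scarna symbols, Snord symbols had 4854 against 2302 UMIs, a log2 ratio of 0.74 (0.67 to 0.81). Of the 332 top nuclei of that ranking, 166 (50%) were also in the snoRNA-rich group, which holds 25% of all nuclei. Part of this overlap is built in, since the snoRNA share counts Snora and Scarna UMIs too. All 332 nuclei at the bottom of that second ranking had 0 Snora and Scarna UMIs, so it separates nuclei less finely. Ranking by Snord13 alone gave Snord118 3256 against 1361 UMIs, a log2 ratio of 1.11 (1.02 to 1.20).

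**Figure D1:**
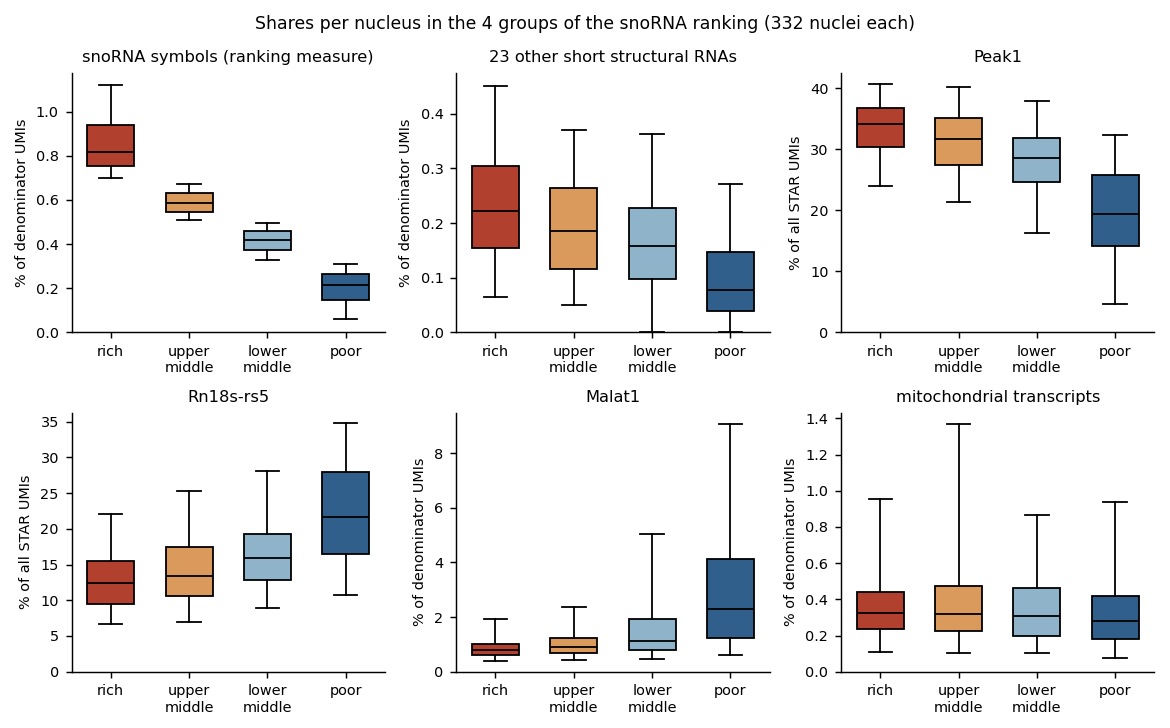
Shares per nucleus (% of denominator UMIs or of all STAR UMIs, as labelled) in the 4 groups of the ranking, 332 nuclei each, with boxes between the quartiles, a line at the median and whiskers from the 5th to the 95th percentile. The snoRNA panel is the measure the groups were cut on; the 23 other short structural RNAs and Peak1 fall from rich to poor, Rn18s-rs5 and Malat1 rise, and mitochondrial transcripts change little.

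Depth differed little between the compared groups on the scale used for the STAR ratios. The median nucleus had 2164.5, 2310, 2186.5 and 1933.5 denominator UMIs from rich to poor and 1050, 1151, 1150.5 and 1045 kallisto UMIs in all. For the kallisto ratios the denominators differed more, with 131844 UMIs in snoRNA-rich and 179713 in snoRNA-poor nuclei. Across the 1328 nuclei the snoRNA share and the denominator UMIs had a Pearson r of -0.0037 as a description, with no test since the nuclei share a library. The features left out of the denominator took a median of 72.9% of STAR UMIs in snoRNA-rich and 59.2% in snoRNA-poor nuclei. Summed over each group, STAR counted 3093438 and 2052618 UMIs in all and 842046 and 834757 in the denominator. After thinning each nucleus to 1000 denominator UMIs, which left out 4 snoRNA-rich and 6 snoRNA-poor nuclei, the median number of genes was 625, 646, 670 and 705 from rich to poor. Unthinned, it was 1209.5, 1291, 1266 and 1210.5.

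Other short RNAs that lack a poly(A) tail were higher in snoRNA-rich nuclei as well, with STAR log2 ratios between 0.70 and 1.54 for the members given here. Of 23 genes in the table from lists of RNase P, RNase MRP, 7SK, Y, vault, 7SL, U3, telomerase and spliceosomal RNAs, 12 had STAR UMIs in the compared groups. For U3 and telomerase RNA, 6 symbols gave 1 gene in the table, and it had 0 STAR UMIs. The 23 genes summed to 1998 UMIs in snoRNA-rich and 803 in snoRNA-poor nuclei, a log2 ratio of 1.30 (1.18 to 1.42). Their share was 0.237%, 0.204%, 0.164% and 0.0962% from rich to poor, and 0.00101% in standard nuclei. Across all other genes with at least 200 UMIs in both groups together, 8.63% were higher in snoRNA-rich nuclei by at least 1.5-fold. All 3 members of this group with 200 UMIs were among them.

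Rpph1, the RNA of RNase P, which trims the 5′ ends of tRNA precursors, had 1046, 1169, 802 and 426 UMIs from rich to poor. Its log2 ratio was 1.28 (1.12 to 1.45). Rmrp, the RNA of the related RNase MRP, was counted only by kallisto, with 134 UMIs in snoRNA-rich and 28 in snoRNA-poor nuclei. Both were higher in snoRNA-rich nuclei.

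7SK, which holds the elongation factor P-TEFb inactive, had 419, 357, 306 and 161 UMIs, a log2 ratio of 1.37 (1.10 to 1.64). By kallisto it had 484 against 163 UMIs. Vaultrc5, a vault RNA, had 111 against 40 STAR UMIs, and Rny3, a Y RNA bound by Ro60, had 108 against 54. Per denominator UMI all 3 fell at each step from rich to poor.

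Gm25541, annotated as a spliceosomal snRNA gene, had 155, 151, 106 and 53 UMIs, a log2 ratio of 1.54 (1.08 to 2.01). Rnu12, the U12 RNA of the minor spliceosome, had 39, 52, 25 and 14 UMIs, and its log2 ratio was 1.47 (0.55 to 2.46). Rnu11, the U11 RNA of the same spliceosome, had 23, 24, 16 and 14 UMIs, and its log2 ratio of 0.70 (-0.32 to 1.78) had an interval that held 0. Ranked without Snord118 and Snord13, Rnu12 was at 0.38 and Vaultrc5 at 0.48. The 5S rRNA genes, transcribed by RNA polymerase III outside the rRNA repeat, summed to 1516 against 591 UMIs, or 0.180% against 0.0708%. The 3 of them with 200 UMIs were all higher, and n-R5s25 alone had 544, 544, 390 and 219 UMIs. Genes of such families are near-identical copies, so which copy gave a UMI is uncertain.

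Gm24949 is a snoRNA-class gene whose symbol the rule did not match. It had 2414, 2348, 1543 and 891 UMIs from rich to poor, a log2 ratio of 1.43 (1.31 to 1.54), and its level in standard nuclei was 17.9 UMIs per 1000000 denominator UMIs (CPM). It is shown beside the annotated U3 gene Snord3a, since that gene, for U3, which is needed for the early cuts of pre-rRNA, stands in the tables under its identifier ENSMUSG00002074875 and was not matched by the rule. The matched U3 symbol, the pseudogene Snord3b-ps1, had 0 STAR UMIs. Gm24949 lies at chr11:95923504-95923718 and this Snord3a at chr10:40134463-40134676, both on the plus strand, with box C and the last box D in capitals.
Gm24949: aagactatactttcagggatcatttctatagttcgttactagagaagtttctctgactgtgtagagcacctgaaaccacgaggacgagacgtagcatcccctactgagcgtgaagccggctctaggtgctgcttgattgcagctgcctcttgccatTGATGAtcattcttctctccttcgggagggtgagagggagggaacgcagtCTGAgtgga
Snord3a: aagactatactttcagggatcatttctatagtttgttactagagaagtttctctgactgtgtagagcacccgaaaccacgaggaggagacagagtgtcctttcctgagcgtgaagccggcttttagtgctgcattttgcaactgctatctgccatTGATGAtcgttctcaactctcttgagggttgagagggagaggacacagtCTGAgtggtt
A global alignment gave 182 identical bases in 217 columns, or 83.9%. Snord3a had 0 STAR UMIs, and kallisto gave it 30 UMIs in snoRNA-rich and 1 in snoRNA-poor nuclei.

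**Figure D2:**
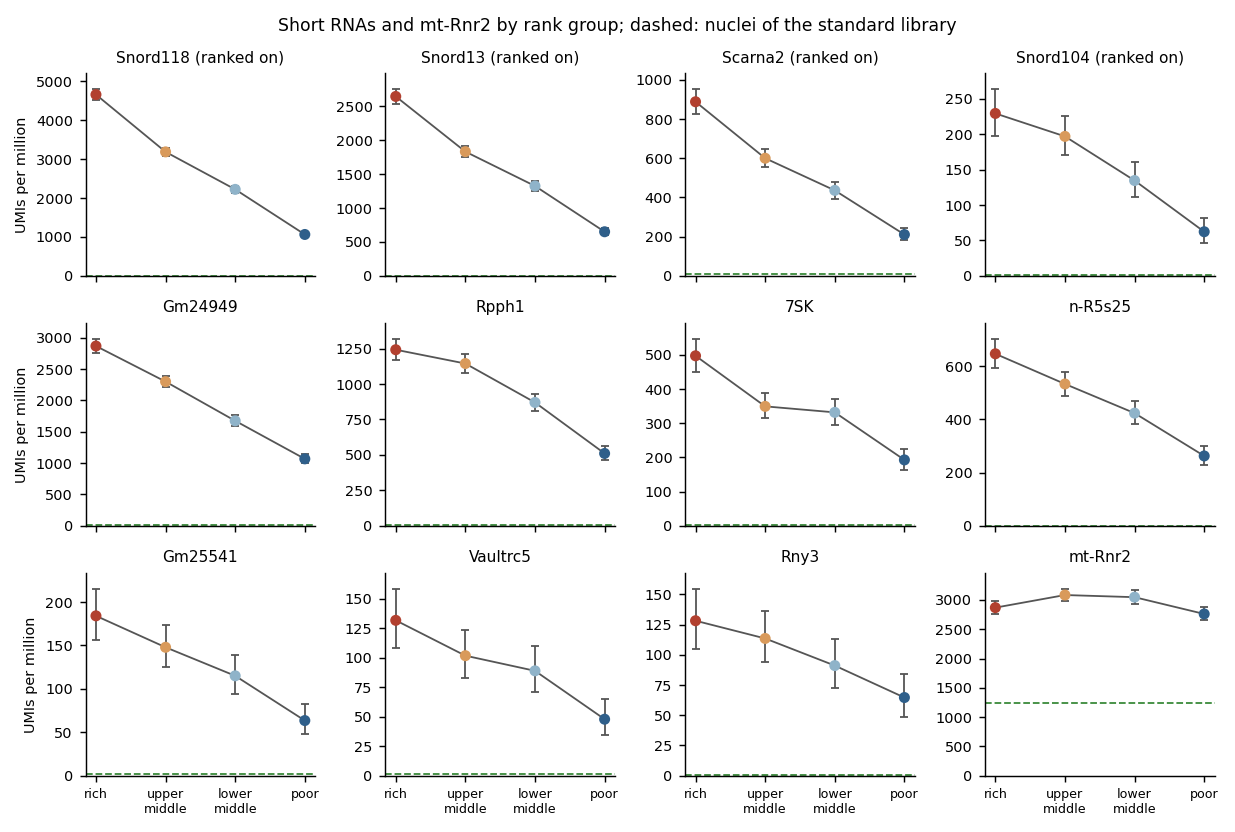
CPM (UMIs per 1000000 denominator UMIs, linear axis from 0) of 11 short RNAs and mt-Rnr2 in the 4 groups, with exact 95% Poisson intervals for counting error; the dashed line is the level in standard nuclei. Snord118, Snord13, Scarna2 and Snord104 were used for the ranking; the 7 short RNAs that were not also fall at each step, while mt-Rnr2 stays between 2761 and 3084 CPM.

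Features left out of the denominator divided along the same groups. Peak1, a pseudokinase gene, had 1063377 UMIs in snoRNA-rich and 443926 in snoRNA-poor nuclei, a log2 ratio of 1.25 per denominator UMI. It took 34.4%, 32.9%, 29.2% and 21.6% of all STAR UMIs from rich to poor and 0.102% in standard nuclei. By kallisto it had 24 and 56 UMIs. ENSMUSG00002076173 and Zfp791 had log2 ratios of 1.27 and 1.27. The 18S rRNA feature Rn18s-rs5 went the other way, with 364560 against 416148 UMIs and a log2 ratio of -0.20 (-0.21 to -0.20). It took 11.8%, 12.9%, 15.5% and 20.3% of all STAR UMIs. Mir6236 differed little, with 30077 against 27891 UMIs. Across the 1328 nuclei the snoRNA share and the Peak1 share had a Pearson r of 0.60 and a Spearman rho of 0.61, as a description within 1 library. The part of these features in the snoRNA ranking was not tested.

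The RNA of ENSMUSG00002076173, annotated as a miRNA gene at chr16:10961989-10962045 on the plus strand, is nearly the same as that of ENSMUSG00002075551 at chr13:9884505-9884561 on the minus strand, and they are shown because the tables count them apart. Both are 57 bases long and differ at the capital letter, G11A, counted from 1 at the 5′ end with the first gene's base first.
ENSMUSG00002076173: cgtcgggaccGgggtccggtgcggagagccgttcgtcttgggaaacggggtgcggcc
ENSMUSG00002075551: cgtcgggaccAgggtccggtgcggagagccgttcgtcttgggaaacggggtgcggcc
STAR gave ENSMUSG00002076173 662595 UMIs in snoRNA-rich and 271900 in snoRNA-poor nuclei, and ENSMUSG00002075551 229 and 96. kallisto gave the former 0 and the latter 99276 and 25727, and 167, 146, 121 and 71 nuclei from rich to poor had it by kallisto. The kallisto denominator therefore leaves ENSMUSG00002075551 out.

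Mitochondrial rRNAs, which carry short tails of their own, differed less than the short RNAs above. The large mitochondrial rRNA mt-Rnr2 had 2416, 3150, 2809 and 2305 UMIs from rich to poor, a log2 ratio of 0.06 (-0.03 to 0.14). The small one, mt-Rnr1, had 590 UMIs in both groups. By kallisto the ratios were 0.43 (0.32 to 0.55) and 0.47 (0.19 to 0.74), and relative to the median protein-coding gene 0.47 and 0.40, so their direction depends on the table and the scaling. Both were above their standard level, since mt-Rnr2 had 2869 and 2761 CPM in the rich and poor groups and 1248 in standard nuclei, and mt-Rnr1 had 701 and 707 against 196. The 15 mitochondrially encoded genes summed to 0.389%, 0.415%, 0.417% and 0.370% of the denominator.

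Among all genes outside the ranking, 1426 had at least 200 UMIs in both groups together. Of these, 123 (8.63%) were higher in snoRNA-rich nuclei by at least 1.5-fold and 448 (31.4%) were lower. At the median of 1358 protein-coding genes the log2 ratio was -0.41, although protein-coding UMIs as a whole had one of -0.0018 (-0.0065 to 0.0028). Relative to that median gene, 223 genes (15.6%) were higher and 66 (4.63%) lower. The split between higher and lower depends on where 0 is set, so list counts are given in both versions where they differ, with the relative one set against these 15.6% and 4.63%. By kallisto, 135 genes had 200 UMIs, of which 13 (9.63%) were higher and 31 (23%) lower.

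The higher genes were mostly genes whose STAR UMIs had few kallisto counterparts. Of the 123, 106 (86.2%) had fewer than 1 kallisto UMI per 20 STAR UMIs, against 19.3% of all genes tested, a limit set after the values were seen. Their median level was 512 CPM in snoRNA-rich and 276 in snoRNA-poor nuclei. In the snoRNA-poor group 113 of them (91.9%) were already at 2 times their standard level or more, against 12.8% of all genes tested. Of the 448 lower genes, 1 was. Tested genes without that transcript support took 36.8%, 34.8%, 30.3% and 22.9% of the denominator from rich to poor and 7.20% in standard nuclei.

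The protein-coding genes at the top of the ranking by ratio, among genes with at least 500 UMIs, were Ndrg4, 4930544G11Rik, Erc2, Mapk6, Bach2, Col13a1 and Ksr2. Ndrg4, known from brain and heart, had 757, 789, 470 and 239 UMIs, a log2 ratio of 1.65 (1.44 to 1.87). Erc2, a protein of the presynaptic active zone, had 829, 851, 593 and 293 UMIs. kallisto counted 3 and 3 UMIs for Ndrg4 and none for Erc2. Mapk6, an atypical MAP kinase, had 23071, 25070, 17304 and 8735 STAR UMIs, a log2 ratio of 1.39 (1.35 to 1.42), but 2 and 7 kallisto UMIs. Col13a1, a transmembrane collagen, had 2695 against 1068 and 0 by kallisto. For these genes the STAR ratio therefore describes UMIs that kallisto did not assign to the gene. The pseudogene 4632415L05Rik had 1008 against 384 UMIs, and Gm24949 and 7SK completed the 10.

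Lars2, a mitochondrial leucyl-tRNA synthetase gene, was one of 17 higher genes with transcript support. It had 14483, 16481, 12128 and 7116 STAR UMIs, a log2 ratio of 1.01 (0.97 to 1.05), and 27153 against 14603 kallisto UMIs. The STAR ratio was within 1.5-fold in other rankings, at 0.37 by the share of all STAR UMIs and 0.53 by Snora and Scarna symbols. Its level was 221 CPM in standard nuclei against 8525 in the snoRNA-poor group.

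Of 45 ratios of single genes and groups that are named here and past 1.5-fold, 22 stayed past it in every alternative run for them. The number of alternatives was not the same for all of these 22. Ndrg4, Erc2, Bach2, Col13a1, Ksr2, 4930544G11Rik and Gm24949 had 14, without those on kallisto values, where Malat1 had 16. Lincmd1 and the summed myotube genes had 1. In 16 of the other 23 the ratio came within 1.5-fold when nuclei were ranked by Snora and Scarna symbols or without Snord118 and Snord13.

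**Figure D3:**
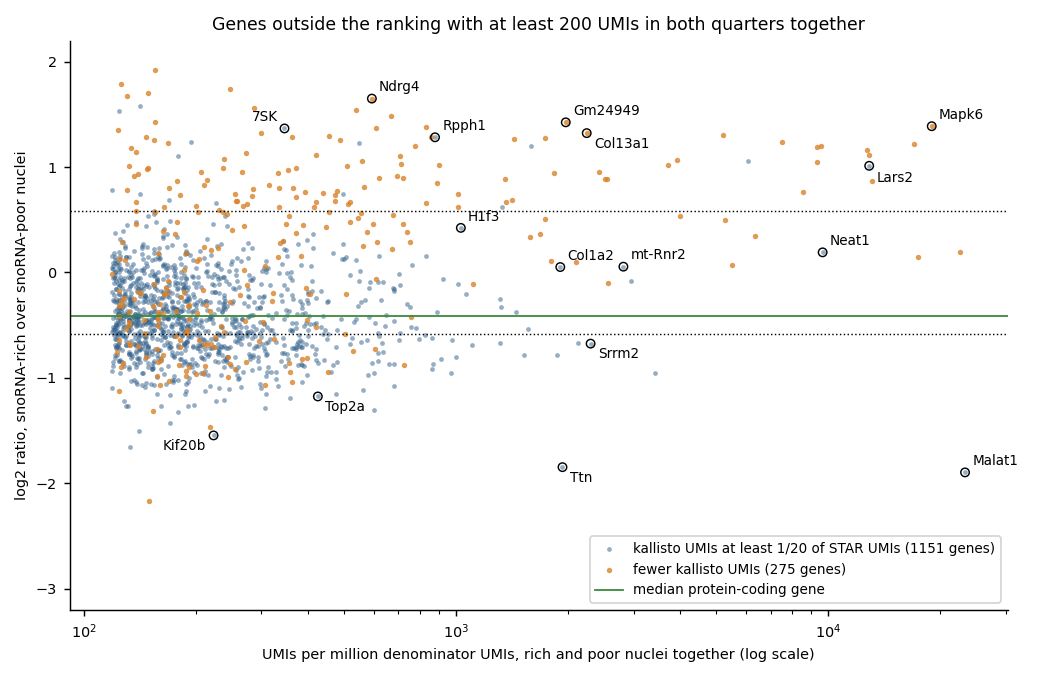
log2 ratio of snoRNA-rich over snoRNA-poor nuclei against level (CPM, log axis) for the 1426 genes outside the ranking with at least 200 UMIs, blue with and orange without kallisto support, with dotted lines at 1.5-fold and a green line at the median protein-coding gene (-0.41). The 275 orange genes hold 106 of the 123 points above the upper line; at the bottom lie Lincmd1 (-2.17), Malat1 (-1.90) and Ttn (-1.85).

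snoRNA host genes did not share the ratio of the snoRNAs. Of 52 host genes in the table, 20 were tested, 1 was higher and 2 were lower by 1.5-fold, against 8.63% and 31.4% of all genes tested, and the median log2 ratio was -0.04, against -0.39 over all genes tested. The 52 summed to 4523 UMIs in snoRNA-rich and 4654 in snoRNA-poor nuclei, a log2 ratio of -0.05 (-0.11 to 0.01). Relative to the median protein-coding gene, 5 were higher and none lower. Rpl7a, a ribosomal protein gene that hosts several box C/D snoRNAs, was the higher one, with 206, 250, 172 and 95 UMIs, but it had 9 kallisto UMIs in each group and 4.67 CPM in standard nuclei. Ncl, which encodes nucleolin, had 215 against 376 UMIs, a log2 ratio of -0.82 (-1.07 to -0.57) that was -0.28 when nuclei were ranked without Snord118 and Snord13. Rpl4 had 111 against 175, and 8 of 16 alternatives put it within 1.5-fold. Dancr, a lncRNA with a snoRNA in it, had 579 against 240 UMIs and was picked after its values were seen.

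Proteins that bind, assemble or work with snoRNAs were not higher either. Of 22 snoRNP and assembly genes, 3 were tested. Nop58, a core protein of box C/D particles, had 91, 146, 142 and 188 UMIs, a log2 ratio of -1.06 (-1.44 to -0.69). Nop56, its partner, had 103 against 127 UMIs, and Nolc1, a chaperone of snoRNPs, 129 against 161, with intervals that held 0. In the list of nucleolus and RNA polymerase I genes, 9 were tested, 0 were higher and 4 lower, against 8.63% and 31.4% of all genes tested, with a median of -0.37. Relative to the median protein-coding gene none of the 9 was higher or lower. The 4 were Ncl, Ddx21, Nop14 and Mybbp1a, and Tcof1, a nucleolar factor of rRNA synthesis, had 304 against 300 UMIs.

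Replication-dependent histone mRNAs, which end in a stem-loop in place of a tail, were less far apart. The list summed to 3301 UMIs in snoRNA-rich and 2824 in snoRNA-poor nuclei, a log2 ratio of 0.21 (0.14 to 0.29), with shares of 0.392%, 0.411%, 0.381% and 0.338% from rich to poor and 0.0718% in standard nuclei. The median of the 5 tested was -0.14, so the sum and the median differ in sign. By kallisto the sum had a log2 ratio of 0.58 (0.50 to 0.66), which turned to -0.036 with ENSMUSG00002075551 kept in the denominator. H1f3 had 993, 1223, 1017 and 734 UMIs, a log2 ratio of 0.42 (0.28 to 0.56), and H1f2 had 370 against 296. H1f4 had 541 against 592, with an interval that held 0. By STAR no tested histone gene of this list passed 1.5-fold, but relative to the median protein-coding gene 2 of the 5 did, and by kallisto H1f3 was at 0.85 and H1f2 at 0.72. Of the replication-independent histones, H2ax, whose mRNA can end either way, did, with 156 against 103 STAR UMIs and a log2 ratio of 0.59 (0.22 to 0.96). That is at the edge of the limit, and 9 of 16 alternatives put H2ax within 1.5-fold, the lowest at 0.18.

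The nuclear lncRNAs were divided. Malat1, a long RNA of nuclear speckles whose end is a triple helix, had 8326, 11222, 18808 and 30754 UMIs from rich to poor, a log2 ratio of -1.90 (-1.93 to -1.86). The median nucleus had 0.793%, 0.918%, 1.11% and 2.28% of its denominator in Malat1, and the standard nuclei had 9.32% in sum. kallisto gave it 2584 against 12552 UMIs. Of the 332 snoRNA-rich nuclei, 137 (41.3%) were in the 25% with the lowest Malat1 share and 21 (6.33%) in the highest. Of the snoRNA-poor nuclei, 27 (8.13%) were in the lowest and 193 (58.1%) in the highest. Across 1328 nuclei the Pearson r of the shares was -0.42 and the Spearman rho -0.52. When nuclei were ranked by Snora and Scarna symbols alone, Malat1 had 10908 against 16703 UMIs, a log2 ratio of -0.95 (-0.99 to -0.92).

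Neat1, the RNA of paraspeckles, did not follow Malat1. It had 8668, 10384, 9213 and 7526 UMIs, a log2 ratio of 0.19 (0.15 to 0.24), which turned to -0.52 by kallisto with ENSMUSG00002075551 kept in the denominator. Xist, which coats the inactive X chromosome, had 711, 897, 951 and 1138 UMIs and a log2 ratio of -0.69 (-0.83 to -0.55). Its ratio was within 1.5-fold, at -0.50, when nuclei were ranked by Snora and Scarna symbols. Of 6 nuclear lncRNAs tested, 0 were higher and 3 lower, against 8.63% and 31.4% of all genes tested. Relative to the median protein-coding gene 1 was higher, Neat1 at 0.60, and 2 were lower.

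Myotube genes were lower in snoRNA-rich nuclei. The 24 genes of the list summed to 1078 against 3408 UMIs, a log2 ratio of -1.67 (-1.77 to -1.57). Both that were tested were lower by at least 1.5-fold, against 31.4% of all genes tested. Relative to the median protein-coding gene both were lower as well, against 4.63%. Ttn, the giant spring protein of the sarcomere, had 709, 799, 1404 and 2530 UMIs, a log2 ratio of -1.85 (-1.97 to -1.73). Ryr1, the calcium release channel of muscle, had 105, 132, 168 and 214 UMIs, a log2 ratio of -1.04. Tnnt2, a troponin, had 55, 99, 87 and 104 UMIs. These ratios were smaller in size in rankings on other snoRNAs. Snord118 and Snord13 held most of the snoRNA UMIs, so a change of RNAs cannot be told apart from a loss of counts. Ranked without Snord118 and Snord13, Ttn was at -0.40, Ryr1 at -0.40 and Tnnt2 at -0.24, so that neither tested gene passed 1.5-fold. Ranked by Snora and Scarna symbols, Ttn was at -0.69 and Ryr1 at -0.47.

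The Ttn UMIs were held by few nuclei. In the snoRNA-poor group 6 nuclei held over 50% of them, 1 nucleus alone had 464, and 147 had any. In the snoRNA-rich group 3 nuclei held over 50% and 154 had any. Without those 3 and 6 nuclei Ttn had 337 against 1255 UMIs, a log2 ratio of -1.94. The rest of the list depended on them: without Ttn it had a log2 ratio of -1.26, and without Ttn and those nuclei -0.56 (-0.76 to -0.35). Lincmd1, a lncRNA of muscle differentiation picked after its values were seen, had 46 against 205 UMIs and the lowest log2 ratio of all genes tested, -2.17 (-2.66 to -1.70). Of 5 myoblast genes tested, 0 were higher and 2 lower, against 8.63% and 31.4% of all genes tested, and the list summed to 1506 against 2031 UMIs. Relative to the median protein-coding gene 1 was lower. Ncam1, a cell adhesion molecule, had 184 against 367 UMIs, a log2 ratio of -1.01 that was -0.18 when nuclei were ranked without Snord118 and Snord13. Des, the muscle intermediate filament protein, had 192 against 229 UMIs, with an interval that held 0.

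Many mitosis genes were lower in the snoRNA-rich group. Of 17 tested, 0 were higher and 11 lower, where 31.4% of all genes tested were lower, and 5 were lower by 1.5-fold relative to the median protein-coding gene, against 4.63% of all genes tested. The 48 genes of the list summed to 0.456%, 0.519%, 0.570% and 0.737% of the denominator from rich to poor. Kif20b, a kinesin of cytokinesis, had 96, 167, 208 and 278 UMIs, a log2 ratio of -1.55 (-1.90 to -1.21). Top2a, the topoisomerase of dividing cells, had 220, 332, 381 and 493 UMIs. Mki67, the proliferation marker, had 266, 321, 340 and 506 UMIs. Of 8 DNA replication genes tested, 0 were higher and 3 lower, against 8.63% and 31.4% of all genes tested. Their median was -0.40, near the -0.39 over all genes tested. Relative to the median protein-coding gene none of the 8 was higher or lower.

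The remaining genes at the bottom of the ranking by ratio, among genes with at least 500 UMIs, included factors of splicing and the nuclear pore. Prpf38b, a spliceosome protein, had 293, 434, 595 and 719 UMIs, a log2 ratio of -1.31 (-1.51 to -1.11). Scaf11, an SR-related splicing factor, had 151, 231, 291 and 364. Prpf4b, a splicing kinase, had 298 against 642 and Tpr, a protein of the nuclear basket, 161 against 356. Golgb1, Eif3a and Ash1l were the others, with log2 ratios of -1.19, -1.16 and -1.10. In the list of splicing factors, 18 were tested, 0 were higher and 8 lower, where 31.4% of all genes tested were lower, with a median of -0.53. Relative to the median protein-coding gene 1 of the 18 was lower, and the median was -0.12. The most abundant, Srrm2, had 1492, 2010, 2264 and 2362 UMIs, a log2 ratio of -0.68 that was -0.26 relative to the median gene.

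**Figure D4:**
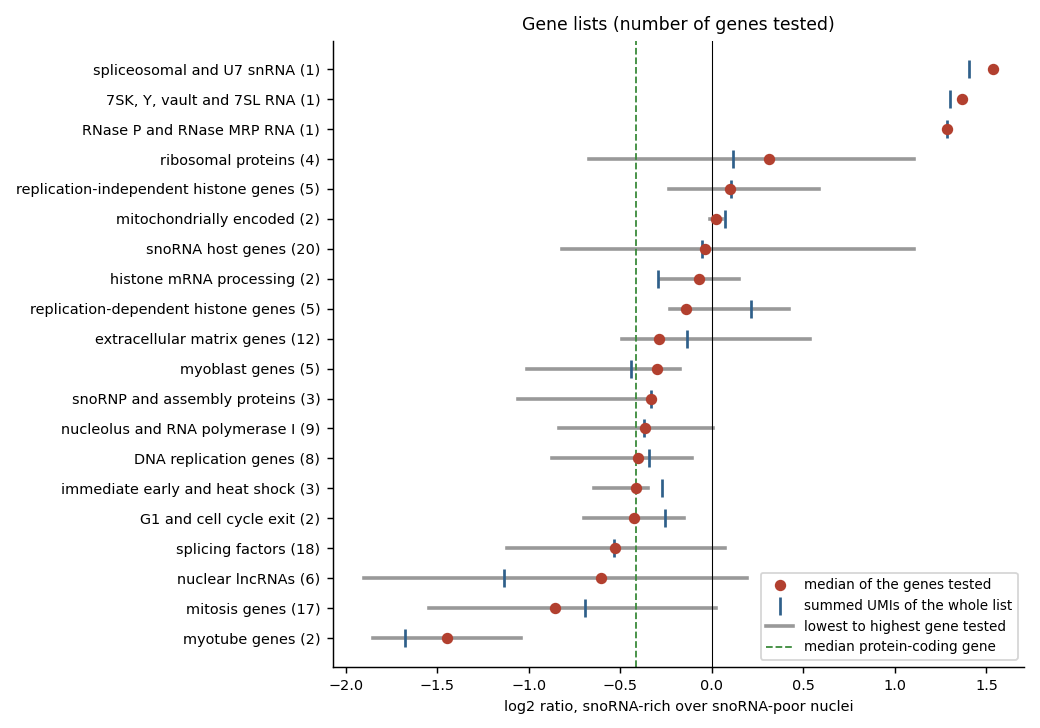
log2 ratio of snoRNA-rich over snoRNA-poor nuclei for the gene lists with at least 1 gene tested (number tested in brackets): red points are medians, grey lines run from the lowest to the highest gene, blue bars are the summed UMIs of the whole list, and the dashed line is the median protein-coding gene (-0.41). Structural RNA lists lie above 1.2, host genes near 0, and mitosis and myotube genes below the median gene.

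Gene length moved with the ratio. The 1127 tested protein-coding genes with transcript support were put into 4 bins by the length from gene start to gene end. The median log2 ratio was -0.14, -0.41, -0.53 and -0.60 from the shortest to the longest bin, and 13.1%, 29.8%, 42.7% and 52.8% of the genes were lower by 1.5-fold. Of the 10 genes with the lowest ratios among genes with at least 500 UMIs, 8 were no longer than 66136 bases. That is within the lengths of the 2 shorter bins. Malat1, a lncRNA outside the bins, was among the 8. The part of length in the lists was not tested.

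**Figure D5:**
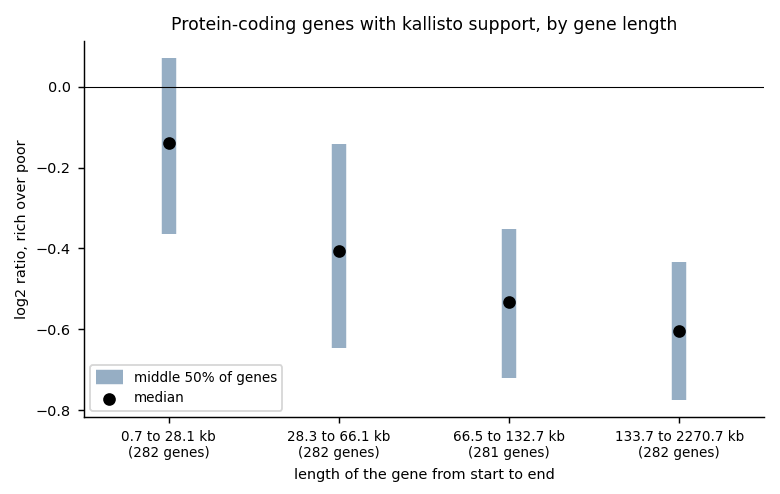
log2 ratio of snoRNA-rich over snoRNA-poor nuclei for tested protein-coding genes with kallisto support in 4 bins of gene length (kb), with the median as a point and the middle 50% of genes as a bar. The median falls from -0.14 in the shortest to -0.60 in the longest bin.

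Extracellular matrix, ribosomal protein and oxidative phosphorylation genes had summed log2 ratios of -0.13, 0.12 and -0.0068. Of 12 extracellular matrix genes tested, 0 were higher and 0 lower, against 8.63% and 31.4% of all genes tested, and relative to the median protein-coding gene 1 was higher. Col1a2, a fibrillar collagen chain, had 1633 against 1562 UMIs. The 82 ribosomal protein genes summed to 2318 against 2119 UMIs, with an interval of 0.03 to 0.20. The 73 oxidative phosphorylation genes summed to 1256 against 1251 UMIs, and none had enough UMIs for the count.

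The label of the cells was checked against markers. All 9 myoblast and 12 myotube markers had UMIs in the 1328 nuclei, the first with 4208 in all and the second with 6435, most of them in Ttn. The 13 markers of other cell types had 282 UMIs in all, with 105 CPM in snoRNA-rich, 50.3 in snoRNA-poor and 51.4 in standard nuclei. None of the 13 was at 0, and Rbfox3, a neuronal marker, led with 105 UMIs, 39 of them in snoRNA-rich and 13 in snoRNA-poor nuclei and none of those by kallisto. Their part in the comparison was not tested.

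Barcodes with few UMIs were read out as a measure of RNA outside the retained nuclei. In 229964 barcodes with 1 to 100 kallisto UMIs, snoRNA symbols took 2.55% of the kallisto denominator, against 0.908% in snoRNA-rich and 0.191% in snoRNA-poor nuclei. Malat1 took 5.14% there, against 1.96% and 6.98%. The snoRNA-rich nuclei lay between the snoRNA-poor nuclei and the low-UMI barcodes in their snoRNA share, but below both in their Malat1 share. Free RNA in the droplets as a part of the snoRNA share was not tested.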

How the data were processed

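Nuclei of C2C12 cells were profiled in 1 in situ polyadenylated and 1 standard library. Per the methods of the authors, reads were trimmed with cutadapt 3.4. They were aligned to GRCm39 with GENCODE M28 by STAR 2.7.10a, with multimapping reads allowed. For the second table they were assigned strand-aware to transcripts by kallisto 0.48.0 and counted by bustools 0.41.0. The authors deposited STAR values as whole UMI counts per gene and barcode. They deposited kallisto values as estimated counts made by the authors with bustools, which were rounded here for intervals. How STAR barcodes were selected was not given in the sources used here. Of 1335 barcodes over 750 kallisto UMIs, 7 had no STAR barcode. UMIs were summed per group and divided by the denominator UMIs. A gene was called higher or lower past 1.5-fold among genes with at least 200 UMIs in both groups together, and a count of 0 was set to 3 for a fold. Cells of 1 library are not replicates, so no test was run, and intervals cover counting error only. The ratio and its interval were checked on simulated counts with known folds. No doublet caller was run, and leaving out the deepest 5% of nuclei was an alternative. Gene class, position and sequence came from GENCODE M39 by identifier, which matched 54749 of 55414 features. The members, the 23 gene lists and the limits were chosen with earlier results of these data known. Genes were named by rule: the 10 highest and 10 lowest ratios with at least 500 UMIs, the 3 most abundant members of each list and its members past 1.5-fold, the most abundant snoRNAs and some fixed RNAs, and exceptions are named as such; not all are printed. Python 3.11.15, numpy 2.4.6, pandas 2.3.3, scipy 1.17.1, Biopython 1.88 and matplotlib 3.10.9 were used. The sequence of 1 snoRNA is not reported here.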

Additional observations from a re-analysis of the deposited data

How the results depend on the processing

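No paired analysis was possible because the comparison is within 1 library and the groups share fewer than 2 replicate numbers. Of 56 ratios of single genes and groups, 43 kept their sign under each alternative run for them, 17 higher and 26 lower. Some had fewer alternatives than others, such as 1 for Lincmd1 and 14 for Ndrg4. Malat1 ranged from -2.45 to -0.95, Rpph1 from 0.71 to 1.93 and 7SK from 0.74 to 2.02. The values below are given as genes higher, genes lower and log2 ratios of the summed short structural RNAs, replication-dependent histone genes and protein-coding genes (1.30, 0.21 and -0.0018 as reported), where they moved. Thinned to 1500 denominator UMIs, which left out 227 nuclei, 77 genes were higher and 134 lower of 498, and structural RNAs were at 1.15. Ranked by the share of all STAR UMIs, 59 were higher and 147 lower, with structural RNAs at 0.84 and histones at 0.063. Ranked by the kallisto share, structural RNAs were at 1.07. Ranked by Snora and Scarna, 59 were higher and 120 lower, with structural RNAs at 0.79 and protein-coding genes at -0.0078. Ranked without Snord118 and Snord13, 68 were higher and 145 lower, with structural RNAs at 0.74, protein-coding genes at -0.0097. The top against the bottom 10% of nuclei gave 148 lower of 371 tested, with structural RNAs at 1.88 and histones at 0.30. A minimum of 1500 UMIs per nucleus gave 162 lower of 500 tested and protein-coding genes at 0.0041. Means of nuclear shares gave protein-coding genes at -0.0073. Scaled to the median protein-coding gene, 223 were higher and 66 lower, with structural RNAs at 1.71, histones at 0.62 and protein-coding genes at 0.41. A minimum of 100 UMIs per gene gave 963 lower of 3190 tested, one of 500 gave 74 higher and 112 lower of 366 tested, and a fold of 2 gave 58 higher and 63 lower. kallisto values without ENSMUSG00002075551, which was left out after seeing the data, gave 13 higher and 31 lower of 135, structural RNAs at 1.97, histones at 0.58 and protein-coding genes at 0.020, and Mapk6 turned to -1.36 on 2 and 7 UMIs. Other alternatives were added after seeing the data. With ENSMUSG00002075551 kept in the kallisto denominator, 9 were higher and 94 lower of 136, protein-coding genes were at -0.60, and histones (-0.036), Rpl7a (-0.17), 4632415L05Rik (-0.58), Mapk6 (-1.98) and Neat1 (-0.52) turned to lower. With a denominator of supported genes, 189 were higher and 106 lower, with structural RNAs at 1.63, histones at 0.54 and protein-coding genes at 0.32. Leaving out the nuclei that held over 50% of Ttn moved Lincmd1 to -1.62. Fewer genes tested, by construction, lowered the counts in the thinned, kallisto, 10% and 500-UMI versions, and for the other changes the cause was not tested. Medians of 18 and 4 snoRNA UMIs per nucleus limit how finely nuclei can be ordered.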
